A study of Homo sapiens with 2 samples.

Results

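A total of 243 regions bound by TCF7L1 lay at the start of a long non-coding RNA (lncRNA) gene, at its 5′ end or at an internal start, and away from protein-coding starts. Each was a region called with TCF7L1 that did not overlap, by 1 bp or more, any region called with the DNA-binding mutant TCF7L1-MUT. Its summit, the base with the highest stack of reads, was within 2.5 kb of the transcription start site (TSS) of a lncRNA gene and more than 5 kb from the TSS of every protein-coding gene in GENCODE release 44. These 243 were 6.97% (Wilson 95% interval 6.17 to 7.86) of the 3487 TCF7L1-only regions on chromosomes 1 to 22 and X. Over all sequences, 3531 of 3663 TCF7L1 regions (96.4%) had no TCF7L1-MUT overlap. The calls, the fold enrichments and the distances chose the regions, so they are described here and not tested.

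The regions come from chromatin immunoprecipitation followed by sequencing (ChIP-seq) in HCT116, an established human colon adenocarcinoma cell line. Both groups were stable lines kept in puromycin, in which the lentiviral hairpin shTCF7L1-2 lowered endogenous TCF7L1. Both carried a pCW57.1 plasmid, induced with 1 µg/ml doxycycline, that expressed FLAG-tagged TCF7L1 in the TCF7L1 group or TCF7L1 with a mutated DNA-binding domain in the TCF7L1-MUT group, and chromatin was collected with an anti-FLAG antibody. With 1 sample per group there was no replicate to check any value against, and no p-value is given. The protein was expressed from a plasmid, so the regions are those of the induced, tagged factor and not of endogenous TCF7L1. Intervals on shares cover counting error within this library only, and the total number of reads per library was not analysed here.

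TCF7L1 belongs to the TCF/LEF family, whose HMG domain binds a short DNA element and which carries the response to Wnt signalling together with β-catenin. Without β-catenin these factors recruit corepressors of the TLE family, and TCF7L1 is known mainly as a repressor. LncRNA genes are transcribed much like protein-coding genes but do not encode long proteins. Some serve as hosts of microRNAs, some arise next to a developmental regulator and share its chromatin, and some start within mobile elements that carry promoters of their own.

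The sequences at the summits show the range of these starts. The TCF core pattern was searched on both strands as CTTTGNN, where each N is A or T. Among the regions of single-copy sequence, 5 had a match within 10 bp of the summit. In these the pattern lay almost under the highest stack of reads, and 4 of them are printed as the 61 bases centred on the summit in GRCh38/hg38, 5′ to 3′ on the strand of the lncRNA, with matches to either strand in capitals.
ENSG00000249483, chr5:81851684-81851744, plus strand: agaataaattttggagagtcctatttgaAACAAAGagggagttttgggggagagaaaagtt
ENSG00000268926, chr9:95770886-95770946, plus strand: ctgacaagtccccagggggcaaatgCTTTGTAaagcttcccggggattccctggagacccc
LINC02288, chr14:77040440-77040500, plus strand: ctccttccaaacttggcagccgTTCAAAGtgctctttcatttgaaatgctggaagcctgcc
ENSG00000289531, chr14:50062830-50062890, minus strand: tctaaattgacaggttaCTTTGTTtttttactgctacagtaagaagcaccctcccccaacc

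A further 5 single-copy regions with a match are shown as 151 bases centred on the summit in the same way. MIR9-1HG hosts a microRNA, and LINC01411 and ZNF503-AS1 each had a pair of regions. ENSG00000264735 had NOTUM as its nearest protein-coding gene and ZNRF3-AS1 lay in an intron of ZNRF3, which are both feedback inhibitors of Wnt signalling.
MIR9-1HG, chr1:156457475-156457625, minus strand: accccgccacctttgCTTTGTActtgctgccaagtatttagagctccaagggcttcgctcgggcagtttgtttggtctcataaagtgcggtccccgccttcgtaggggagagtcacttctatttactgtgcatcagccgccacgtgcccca
ZNRF3-AS1, chr22:29030833-29030983, minus strand: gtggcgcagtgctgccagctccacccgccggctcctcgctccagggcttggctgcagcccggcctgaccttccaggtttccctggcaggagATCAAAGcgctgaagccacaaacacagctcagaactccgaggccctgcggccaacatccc
LINC01411, chr5:174503847-174503997, plus strand: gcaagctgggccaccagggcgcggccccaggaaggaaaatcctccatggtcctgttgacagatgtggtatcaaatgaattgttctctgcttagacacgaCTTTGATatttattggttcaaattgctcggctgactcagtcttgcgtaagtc
ENSG00000264735, chr17:81968023-81968173, minus strand: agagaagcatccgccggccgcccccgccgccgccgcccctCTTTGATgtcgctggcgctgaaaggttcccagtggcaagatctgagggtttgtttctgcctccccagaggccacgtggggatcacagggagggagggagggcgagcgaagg
ZNF503-AS1, chr10:75294893-75295043, plus strand: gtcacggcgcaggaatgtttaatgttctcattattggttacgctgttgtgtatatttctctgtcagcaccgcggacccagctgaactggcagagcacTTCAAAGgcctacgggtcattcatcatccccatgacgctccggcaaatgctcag

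The summit that fell on the TSS base itself belonged to MIR17HG. The window reaching 100 bases to either side of it held 24 CpG dinucleotides and a match of the TCF core pattern 67 bp upstream of the start.
MIR17HG, chr13:91347586-91347786, plus strand: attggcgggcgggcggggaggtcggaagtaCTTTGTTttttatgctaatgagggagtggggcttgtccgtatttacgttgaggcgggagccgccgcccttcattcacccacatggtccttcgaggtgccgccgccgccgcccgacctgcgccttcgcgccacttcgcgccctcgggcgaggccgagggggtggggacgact

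The placement rule was met by 83.1 Mb, or 2.85%, of the 2911 Mb of known bases on these chromosomes. The regions were therefore 2.44 times as frequent there as over the chromosomes as a whole, at 2.92 per Mb against 1.2 TCF7L1-only regions per Mb. Of 128 TCF7L1-MUT regions on the same chromosomes, 4 met the placement rule, which is 3.12%, a share that rests on few regions. They lay at ENSG00000250519, at ROCK1P1 in a pair, and at FAM230G, all in sequence with a median of 4 to 10 copies in the genome, and all but FAM230G overlapped a TCF7L1 region. Of the 128, 120 (93.8%, 88.2 to 96.8) were multi-copy by the measure defined below. Their share is therefore not that of a set like the TCF7L1-only regions. The TCF7L1-MUT region closest to any of the 243 was 34487 bp away, at ENSG00000237837, and 217 regions lay on a chromosome that had a TCF7L1-MUT region at all.

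The summits gathered close to the lncRNA start. Of the 243 regions, 131 (53.9%, 47.6 to 60.1) had the summit within 500 bp of the TSS, where 23.0% of the qualifying sequence lies, and 173 (71.2%, 65.2 to 76.5) had it within 1 kb, where 43.4% lies. Within 100 bp there were 48 regions. The median distance was 422 bp. There was no preferred side, with 114 summits (46.9%, 40.7 to 53.2) upstream of the TSS, 1 on it and the others downstream. The bins of 250 bp on either side of the TSS held 48 and 47 regions, against 3 and 6 in the outermost bins. The single-copy and multi-copy classes, defined below, differed there. Upstream and downstream, these bins held 28 and 36 single-copy regions, and 20 and 11 multi-copy regions.

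**Figure D1:**
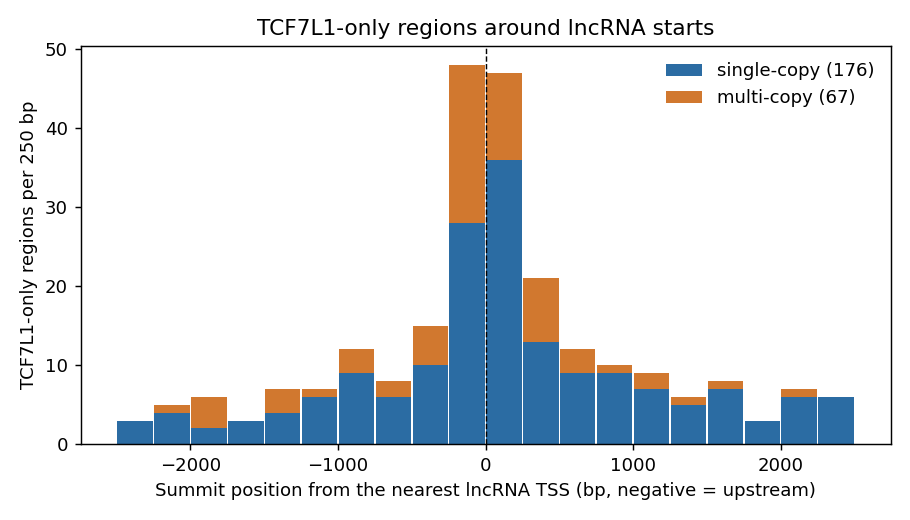
Number of TCF7L1-only regions per 250 bp bin (y axis) by the position of the summit from the nearest lncRNA TSS in bp (x axis, upstream negative), stacked by single-copy (176 regions) and multi-copy sequence (67 regions). The bins next to the TSS hold 48 and 47 regions and the outermost hold 3 and 6.

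A total of 5 summits were nearest to their TSS. They belonged to MIR17HG at 0 bp, ENSG00000235215 at 1 bp, NIHCOLE at -1 bp, CHASERR at 2 bp and LINC01275 at 5 bp. CHASERR is a lncRNA next to CHD2 that is known to restrain CHD2 expression, and its region on chromosome 15 (chr15:92819360-92819725) had a fold enrichment of 4.23 from 35 reads over a background of 7.50. The NIHCOLE summit, at 36 copies, had 8 reads and a fold enrichment of 4.19. ENSG00000235215 had 25 reads (fold 5.51), LINC01275 had 30 (fold 5.10), and the MIR17HG region is described with the microRNA hosts.

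By annotation, 106 summits lay in an intron of a lncRNA gene, 77 in an exon of one and 60 outside lncRNA genes. The body of a protein-coding gene contained 40 summits, of which 1, at STAU2-AS1, fell in an exon of the coding gene, STAU2. The nearest protein-coding TSS was a median of 56340 bp away, with a range from 5115 bp at ENSG00000289854 to 2113098 bp, and 78 regions were over 100 kb from any. A start within a long gene counted as much as its 5′ end. The 5′ end of a lncRNA gene was within 2.5 kb of 179 summits, and the other 64 were near an internal start alone. The nearest lncRNA had no symbol other than its Ensembl identifier for 116 regions, and a LINC name for 64. Whether these lncRNAs were transcribed in HCT116 cells was not analysed here.

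The regions nearest to each limit had these values. At the 2.5 kb limit, HAGLR (2484 bp), MNX1-AS2 (2444 bp) and ENSG00000227481 (2409 bp) were inside, with fold enrichments of 5.01, 4.82 and 3.49. LINC02458 (2514 bp), ENSG00000290978 (2528 bp) and ENSG00000271787 (2562 bp) were outside, with 5.96, 4.74 and 3.97. At the 5 kb limit from protein-coding genes, ENSG00000289854, MNX1-AS2 and HIF1A-AS3 were inside at 5115, 5212 and 5469 bp, with fold enrichments of 5.08, 4.82 and 4.74. The regions at ENSG00000274507, LHX2-AS1 and ENSG00000228478 were left out at 4949, 4659 and 4577 bp, with 4.19, 4.34 and 2.93, all below the folds of the 3 inside. The lowest −log10 q-values among the 243 were 1.33 at ENSG00000289441, 1.38 at LINC02722 and 1.38 at LINC00358.

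Fold enrichment is the reads stacked at the summit over the local background, with 1 added to both. It had a median of 5.05 (4.88 to 5.21), quartiles of 4.25 and 5.87 and a range from 2.70 to 10.2. The stack itself was a median of 21 reads, from 5 at FAM182B to 85, over a median background of 3.66. The median −log10 q-value was 5.64, and 200 regions had a q-value of at most 0.001. Of the 243, 3 were among the library's 100 highest folds and 25 among its highest 10%, which is close to the number that 10% of the regions comes to. TCF7L1-only regions within 1 kb of a protein-coding TSS, called core promoters here (724 regions), had a median of 4.63 (4.55 to 4.71), and those over 5 kb from coding and over 2.5 kb from lncRNA starts, called distal here (2184 regions), had 5.10 (5.05 to 5.14).

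The highest fold was at SLC8A1-AS1, a transcript antisense to the sodium-calcium exchanger gene SLC8A1, where 76 reads stood over a background of 6.57 (fold 10.2, chr2:39789939-39790735). It lay in an intron, 1958 bp upstream of an internal TSS, with CTTTGAA 41 bp from the summit. The next were ENSG00000237837 on chromosome 2 (fold 10.1, 21 reads over 1.18) and ENSG00000290553 on chromosome 7 (8.75, 11 reads over 0.372). Like the SLC8A1-AS1 region, both of these lay in multi-copy sequence with a median of 3 copies. Both also had few background reads, so their folds rest on small counts.

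MIR99AHG on chromosome 21 gave the highest fold in single-copy sequence, with 8.37 from 25 reads over 2.11. LINC02253 followed with 8.33, ENSG00000232408 and LINC00491 had the same values of 7.99 from 33 reads over 3.25, and ENSG00000287162 had 7.98 from 54 reads over 5.89. ENSG00000290548 (7.85) and LINC01122 (7.78) closed the 10 highest. Among these 10, the regions at MIR99AHG, ENSG00000287162 and LINC01122 were single-copy and the other 7 were not.

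**Figure D2:**
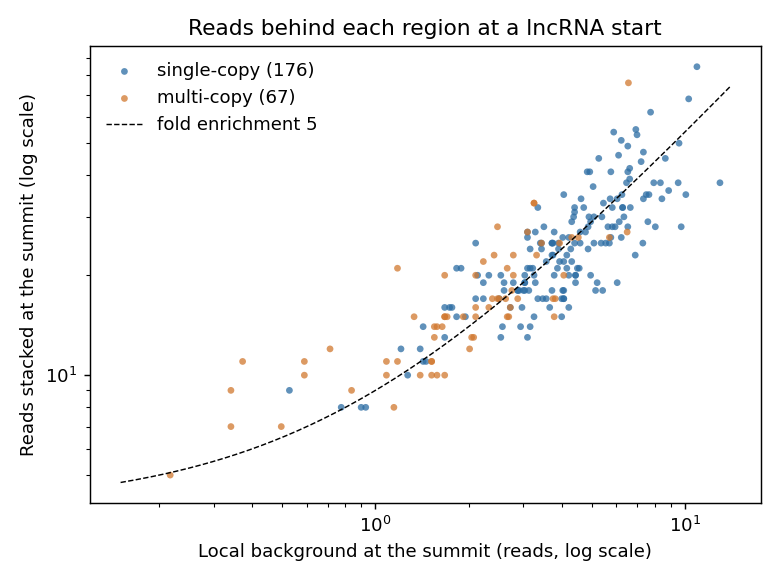
Reads stacked at the summit (y axis, log scale) against the local background at the summit in reads (x axis, log scale) for the 243 regions, 1 point each, coloured by single-copy or multi-copy sequence, with a dashed line where the fold enrichment is 5. Multi-copy regions lie toward the lower left, with a median of 15 reads over 2.11, and single-copy regions have a median of 24 reads over 4.18.

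Multi-copy sequence was common among them. Windows reached 100 bp to either side of the summit, and those with at least 50% of their 31-base words repeated elsewhere in the genome were counted as multi-copy. This was so for 67 of the 243 (27.6%, 22.3 to 33.5), against 12.8% of 33240 windows at lncRNA TSSs that met the same distance from coding genes and had no TCF7L1 region, a difference of 14.8 points (9.55 to 20.7). The latter windows were centred on the TSS base, and those of the 243 on a summit up to 2.5 kb from it. All comparisons with these starts, here and below, therefore differ in position as well. It was also above the 5.66% at protein-coding core promoters, by 21.9 points (16.3 to 28.0). Against the 23.7% of distal regions the difference was 3.9 points, with an interval from -1.65 to 10.1. How reads that map to several places were treated is not given in the sources used here. The median background was 2.11 reads in multi-copy and 4.18 in single-copy regions, and its part in these shares was not tested.

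The TCF core pattern was found in 74 of the 243 windows (30.5%, 25.0 to 36.5). Windows 1 kb to either side held it in 16.0%, a difference of 14.4 points (7.92 to 21.2) and a ratio of 1.90 (1.56 to 2.27). The lncRNA starts without a called region, termed unbound from here on, held it in 13.1%, and the difference was 17.3 points (11.9 to 23.4). With 1 library, the term does not mean that TCF7L1 was absent there. It was also more frequent than at protein-coding core promoters (23.6%), by 6.83 points (0.504 to 13.6). The interval of the difference from distal regions (28.6%) ran from -3.94 to 8.17 points, so no difference was detectable there.

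The pattern was unevenly spread between the copy classes. It was found in 34 of 67 multi-copy windows (50.7%, 39.1 to 62.3) and in 40 of 176 single-copy windows (22.7%, 17.2 to 29.5), a difference of 28.0 points (14.5 to 40.9). Among single-copy regions alone the excess over their own flanks (15.6%) was 7.1 points (0.149 to 14.7). Over unbound single-copy lncRNA starts (13.3%) it was 9.46 points (3.87 to 16.2), and the ratio to flanks fell to 1.46 (1.10 to 1.89). Single-copy protein-coding core promoters (21.2%) differed from them by 1.5 points, with an interval from -4.94 to 8.83.

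Across the 243, the match closest to the summit was in ENSG00000249483 (CTTTGTT, 1 bp), followed by ENSG00000268926 (CTTTGTA), LINC00648 (CTTTGAA), ENSG00000249593 (CTTTGAA) and ENSG00000232006 (CTTTGTT), all at 2 bp, of which the last 3 lay in the shared repeat described below. The first region was weak, with 16 reads over 4.22 and a fold of 3.26, and the second had 37 reads over 5.05 and a fold of 6.28. A match within 50 bp of the summit was present in 49 regions and within 250 bp in 127, so 116 had none over that span.

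Other patterns were compared in the same way. GGGCGG, the box bound by SP and KLF factors, was present in 20.6% (16.0 to 26.1), against 6.38% of flanks, 13.7% of unbound lncRNA starts, 8.88% of distal regions and 29.6% of protein-coding core promoters. The excess over flanks was 14.2 points (8.94 to 20.0), and the deficit against core promoters was -8.98 points (-14.7 to -2.6). The forkhead pattern, TNTTTAC with A or G as N, was present in 16.9% against 7.82% of flanks, a difference of 9.05 points (4.06 to 14.7). It was in 32.8% of multi-copy and 10.8% of single-copy regions, and among the latter the excess over flanks was 4.26 points with an interval from -0.61 to 10.1. Single-copy regions were above unbound single-copy lncRNA starts by 5.83 points (2.04 to 11.3) and above single-copy core promoters by 6.99 points (2.84 to 12.6). From single-copy distal regions they differed by 2.64 points, with an interval from -1.39 to 8.22.

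The AP-1 pattern, TGANTCA with C or G as N, was present in 6.58% of all windows, and the difference from flanks was 3.09 points with an interval from -0.128 to 7.14. In single-copy windows it was at 7.95%, which was 5.11 points (1.2 to 10.2) above their flanks, and in multi-copy windows the difference was -2.24 points (-7.84 to 5.5). The GATA pattern, NGATAN with A or T at the start and A or G at the end, was present in 31.7% and differed from flanks by -1.44 points, with an interval from -8.44 to 5.87. A shorter, AT-rich and degenerate form of the TCF pattern was TTTNAN, with G or T and then A or T as N. This form was less frequent than in flanks, 50.2% against 61.9% (difference -11.7 points, -19.3 to -4.1). It was more frequent than at unbound lncRNA starts (41.4%), by 8.82 points (2.56 to 15.1). In single-copy regions it was at 44.9% against 63.9% of their flanks, a difference of -19.0 points (-27.7 to -10.0). Against unbound single-copy lncRNA starts (42.1%) the difference there was 2.82 points, with an interval from -4.37 to 10.2. In multi-copy regions it was at 64.2% against 56.7% of their flanks, with an interval of the difference from -6.97 to 20.9. The windows were richer in G and C than their flanks, with a median of 53.7% against 43.8%. How far base composition accounts for the pattern shares was not tested.

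**Figure D3:**
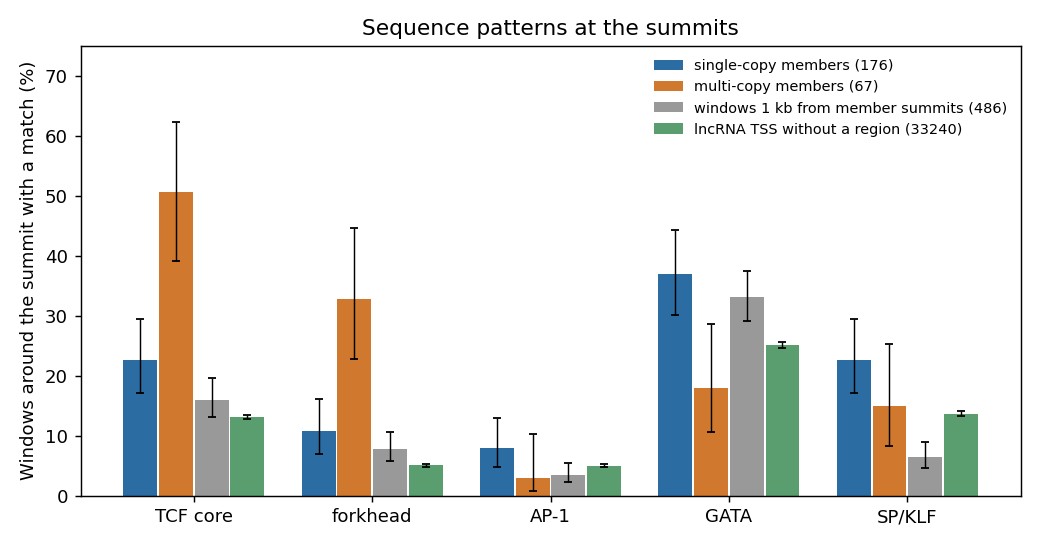
Share of windows of 100 bp to either side of the summit with at least 1 match (y axis, %) for 5 sequence patterns in single-copy regions, multi-copy regions, windows 1 kb from the summits and lncRNA TSSs without a TCF7L1 region, with Wilson 95% intervals as error bars and numbers of windows in the key. The TCF core pattern reaches 50.7% in multi-copy and 22.7% in single-copy regions, against 16.0% in flanks and 13.1% at unbound lncRNA starts.

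Regions at the start itself differed from those farther out. At least 10 CpG dinucleotides, as in a CpG island, were present in 31.3% of the 131 windows within 500 bp of the TSS and in 12.5% of the 112 beyond it, a difference of 18.8 points (8.4 to 28.5). In single-copy regions alone the shares were 29.9% and 11.2%, with a difference of 18.6 points (6.75 to 30.1). The GATA pattern went the other way, with 21.4% near and 43.8% farther out, a difference of -22.4 points (-33.5 to -10.6). It was 26.4% and 47.2% in single-copy regions, a difference of -20.8 points (-33.9 to -6.5). The median G and C content was 54.7% near the TSS and 52.5% farther out. The forkhead pattern was more frequent near the TSS in all regions (22.9% against 9.82%) but not detectably so in single-copy regions, where the difference was 1.38 points (-8.12 to 11.0).

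Over all 243, 22.6% of windows had at least 10 CpG dinucleotides, between the 50.6% of protein-coding core promoters and the 7.65% of distal regions. Unbound lncRNA starts had 17.9%, and the interval of that difference, 4.7 points, ran from -0.126 to 10.4. Those windows were centred on the TSS, and the 243 mix the 31.3% within 500 bp of it with the 12.5% farther out. Among the named regions the densest windows were those of MIR17HG, with 32 and 24, and ENSG00000290553, with 29.

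Repeated sequence tied many of the regions to each other. A 31-base word was shared with another region by 39 of the 243, in 6 groups. A single group of 29 held most of them, including CASC9, LINC02253, LINC00491, HSD17B2-AS1, KC6, NIHCOLE, DLEU1, MIR4713HG and TEX41. The median number of genome copies of their words was 705, from 6 at LINC02671 and DLEU1 to 2399 at ENSG00000267284. After the latter, the most copies were at LINC02253 (2360), KC6 (2092), LINC02542 (2065) and HSD17B2-AS1 (2050). No repeat annotation was used, and the element is not named here.

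Within this group, 24 of 29 windows (82.8%, 65.5 to 92.4) held the TCF core pattern and 21 (72.4%, 54.3 to 85.3) the forkhead pattern. The other 38 multi-copy regions held the TCF core pattern in 26.3% (15.0 to 42.0) and the forkhead pattern in 2.63% (0.466 to 13.5). Matches of the TCF core and forkhead patterns can overlap, so their counts are not independent. These members share a sequence, so they do not count as separate occurrences of the pattern. Without the group, the ratio of the TCF core pattern to flanks was 1.49 (1.16 to 1.88).

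The shared sequence ran in 1 orientation relative to the lncRNA in 24 of the 29 regions, of which 20 had the summit upstream of the TSS and 16 within 200 bp upstream. Their median position was -96.5 bp, with quartiles at -137 and -15.2 bp. The 5 in the other orientation, at LINC00858, DSG1-AS1, ENSG00000249916, LINC02527 and ENSG00000236347, all had the summit downstream, between 292 and 918 bp. In all, 26 of the 29 (89.7%, 73.6 to 96.4) were within 500 bp of the TSS, against 18 of the other 38 multi-copy regions (47.4%, 32.5 to 62.7). The exceptions in the common orientation were ENSG00000249593 at -1781 bp and NUDT16-DT at -1149 bp. No test of the orientation was made.

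**Figure D4:**
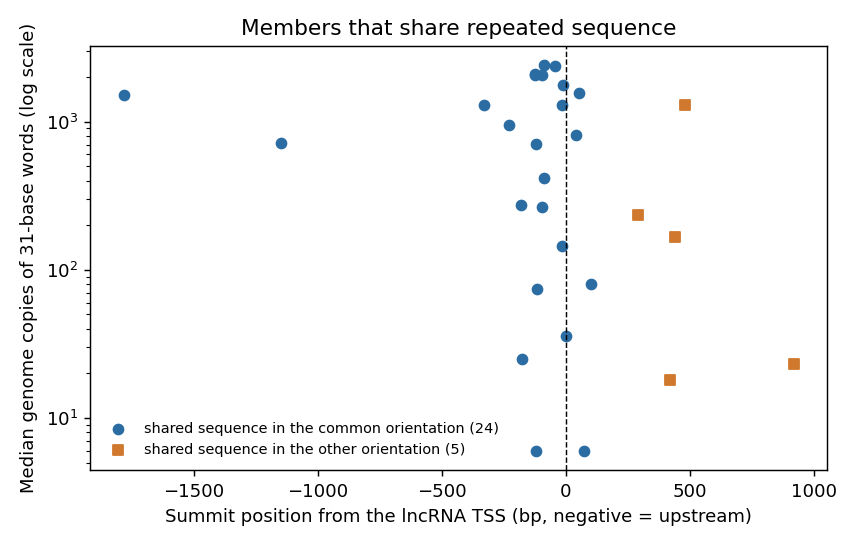
Position of the summit from the lncRNA TSS in bp (x axis, upstream negative) against the median number of genome copies of the window's 31-base words (y axis, log scale) for the 29 regions that share repeated sequence, 1 point each. The 24 in the common orientation gather just upstream of the TSS, with a median of -96.5 bp, and the 5 in the other orientation lie 292 to 918 bp downstream.

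The fold enrichment in this group ran from 4.19 at NIHCOLE to 8.33 at LINC02253, with a median of 5.51. CASC9, a lncRNA studied in several cancers, lay on chromosome 8 with the summit 13 bp before the TSS, with 22 reads over 2.23 and a fold of 7.12. Its nearest protein-coding gene was HNF4G, a nuclear receptor gene of the intestine, 83160 bp away.

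A member was found within 2.5 kb of a TSS of 255 lncRNA genes, which is 1.81% of the 14053 that the placement rule could reach. Lists of lncRNAs were set beside that share. The lists were chosen with earlier results of these data known, so their shares are described and not tested. Of 49 reachable lncRNAs often studied in cancer, 8 had a region (16.3%, 8.51 to 29.0). They were CASC9, CASC15, CRNDE, CYTOR, DLEU1, DLEU2, LINC00511 and MALAT1. Of 70 lncRNAs named as microRNA hosts, 7 had a region (10.0%, 4.93 to 19.2). Of 431 lncRNAs whose nearest protein-coding gene encodes a developmental transcription factor, 22 had a region (5.10%, 3.39 to 7.61). Some of these genes share a region, such as TBX3-AS1 with ENSG00000287982 and LINC03057 with LINC02086. The intervals of the lists count each gene as independent. Of 1200 lncRNAs named after a neighbouring gene, 22 had a region (1.83%, 1.21 to 2.76), which is the share of all.

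Genes with many annotated starts offer more positions to a region. The mean number of distinct TSSs was 27.8 for the studied lncRNAs, 14.9 for microRNA hosts, 3.89 for neighbours of developmental factors and 2.83 for all reachable genes. When only the 5′ end of each gene was used, 195 genes (1.39%) had a region. The shares then became 4.08% of the studied lncRNAs (2 genes), 7.14% of microRNA hosts (5 genes), 3.71% of neighbours of developmental factors (16 genes) and 0.833% of lncRNAs named after a neighbour (10 genes). Of the 6 lists, the share of studied lncRNAs fell by the largest amount. The 5′-end shares kept all reachable genes of each list as the denominator. That can include genes whose 5′ end is too close to a protein-coding TSS to hold a region. How much of each fall comes from this, and how much from the number of starts, was not tested.

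**Figure D5:**
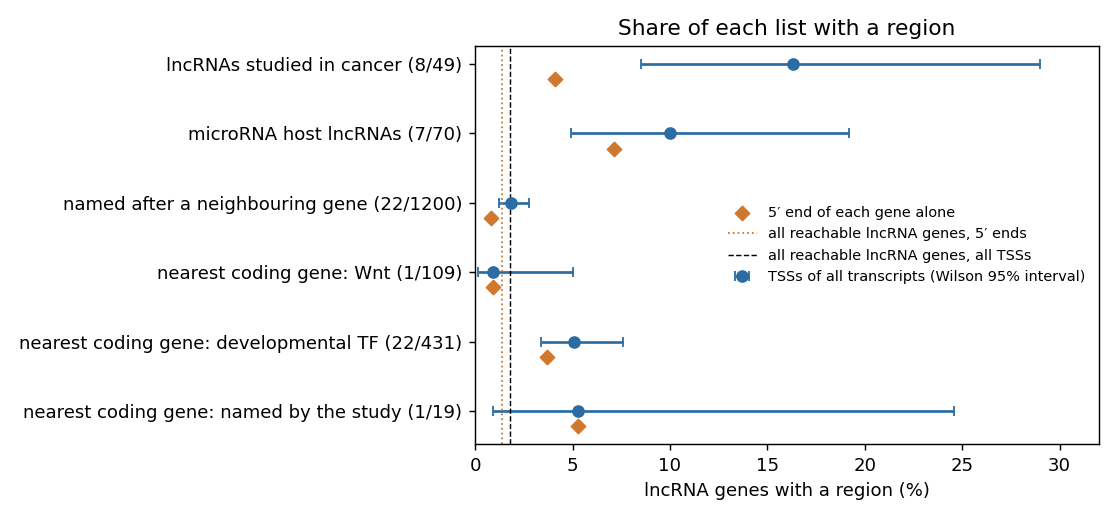
Percent of the lncRNA genes of each list that had a TCF7L1-only region at a start (x axis), with circles and Wilson 95% intervals for the TSSs of all transcripts and diamonds for the 5′ end of each gene alone, and vertical lines for all reachable lncRNA genes by either measure (1.81% and 1.39%). The studied lncRNAs go from 16.3% to 4.08%, while microRNA hosts go from 10.0% to 7.14%. Both measures are shares of the same reachable genes.

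The 7 microRNA hosts are MIR17HG, MIR99AHG, MIR181A1HG, MIR181A2HG, MIR9-1HG, MIR4713HG and MIR4435-2HG. RefSeq (GRCh38.p14) places 31 mature microRNA entries inside them on the same strand. The 12 below are the arms generally taken as the active ones of the well-known hosts. They are printed with the seed, bases 2 to 8, in capitals and grouped by seed, since the seed selects the messenger RNAs that a microRNA represses. There were 9 seeds, 3 of them shared by a pair.
miR-17-5p: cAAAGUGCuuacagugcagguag
miR-20a-5p: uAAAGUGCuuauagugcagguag
miR-19a-3p: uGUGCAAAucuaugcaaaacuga
miR-19b-3p: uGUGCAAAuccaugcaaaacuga
miR-18a-5p: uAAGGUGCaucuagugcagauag
miR-92a-3p: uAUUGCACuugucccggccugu
miR-181a-5p: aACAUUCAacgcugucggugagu
miR-181b-5p: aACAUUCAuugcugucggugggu
miR-9-5p: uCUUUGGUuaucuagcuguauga
miR-99a-5p: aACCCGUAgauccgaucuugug
let-7c-5p: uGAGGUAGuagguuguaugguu
miR-125b-5p: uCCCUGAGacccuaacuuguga
The first 6 come from MIR17HG, a growth-promoting cluster that is a known target of MYC. The pair with seed ACAUUCA is encoded in both MIR181A1HG and MIR181A2HG, miR-9-5p in MIR9-1HG, and the last 3 in MIR99AHG.

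MIR17HG had its regions on the TSS base (17 reads over 4.06, fold 3.56) and at a start farther in (20 reads over 4.43, fold 3.87), on chromosome 13. They lay 2932 and 1826 bp upstream of miR-17-5p, the closest of any host regions to their microRNA. Both were weaker than the median of the 243.

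MIR99AHG had 4 regions, the most of any gene, with folds of 8.37, 5.90, 5.43 and 4.66 from 25, 25, 12 and 8 reads. All were single-copy and lay at separate starts of this long gene, at 631, -7, -2140 and 15 bp from them. The first 3 along the gene were 344947, 258698 and 119840 bp upstream of miR-99a-5p, and the fourth was 34329 bp beyond the last microRNA.

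MIR181A1HG had a fold of 7.59 (32 reads over 3.35) in an exon, 76584 bp upstream of miR-181a-5p. MIR181A2HG had 6.63 (49 reads over 6.54) in an intron that also lies in NR6A1, 33250 bp upstream. MIR9-1HG had 7.20 (41 reads over 4.84), 787 bp upstream of its TSS and with CTTTGTA 57 bp from the summit. MIR4713HG (5.88, 14 reads) and MIR4435-2HG (5.05, 18 reads) were in multi-copy sequence, with medians of 275 and 2 copies.

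Among the studied lncRNAs after CASC9, CRNDE had the highest fold. CRNDE, named for its expression in colorectal neoplasia, had 14 reads over 1.43 (fold 6.18) in an exon, 2044 bp from the TSS, and its nearest protein-coding gene was the homeobox gene IRX5, 7765 bp away. CYTOR had 5.91 from 15 reads in multi-copy sequence, with a median of 2 copies. DLEU1 had 5.81 from 14 reads in the shared repeat, and LINC00511 had 5.27 and 4.97 from 33 and 34 reads at different starts. MALAT1, an abundant nuclear RNA, had 45 reads over 8.65 (fold 4.77) 38 bp upstream of a TSS, in an exon, and had the highest background of the list. CASC15 had 4.27 from 25 reads. DLEU2, which hosts the miR-15a and miR-16-1 microRNAs, had 3.75 from 18 reads, and this region also fell within 2.5 kb of a DLEU1 start.

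The lncRNAs with a developmental transcription factor as nearest protein-coding gene lay at many different factors, some of them far away, and were of middling strength. ENSG00000286471 had a fold of 6.01 (24 reads over 3.16), 75824 bp from SOX17, an endoderm regulator. ENSG00000259280 had 5.86 (27 reads over 3.78), 7610 bp from MEIS2, with CTTTGAA 31 bp from the summit. CRNDE is described above.

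A cluster lay around the orphan nuclear receptor gene NR2F1 on chromosome 5. ENSG00000287180 had 5.79 from 17 reads at 29643 bp from NR2F1, NR2F1-AS1 had 4.89 from 18 reads at 13180 bp, and ENSG00000289274 had 3.71 from 38 reads over 9.52 at 6472 bp. Its relative NR2F2 was 52099 bp from the region at NR2F2-AS1. That region had 5.77 from 30 reads over 4.37 and CTTTGAA 70 bp from the summit. LINC02994, in the shared repeat, had 5.28 from 10 reads and NKX6-1 as its nearest coding gene, 197433 bp away. LINC02966, 46262 bp from PAX8, had 5.21 from 38 reads over 6.48, and HAGLR in the HOXD cluster had 5.01 from 27 reads.

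Of 109 reachable lncRNAs with a Wnt pathway or Wnt target gene as the nearest protein-coding gene, 1 had a region (0.917%, 0.162 to 5.01), an interval that holds the 1.81% of all reachable lncRNA genes. This was ENSG00000264735, where 30 reads stood over 4.90 (fold 5.26), 6258 bp from NOTUM, whose product inactivates Wnt ligands by removing their lipid. ZNRF3-AS1 is not in that count, because the TSS of C22orf31 was nearer, but its region lay in an intron of ZNRF3, which encodes a ubiquitin ligase that removes Frizzled receptors. It had 26 reads over 5.77 (fold 3.99), with CTTTGAT 19 bp from the summit. Of 19 lncRNAs nearest to a protein-coding gene that the study names, 1 had a region. This was LINC02893, at 94459 bp from GAS1, in sequence with a median of 744 copies and with 13 reads over 2.05 (fold 4.60).

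Of the lncRNAs named after a neighbouring gene, those described after SLC8A1-AS1 are ZNF503-AS1, HSD17B2-AS1, STAU2-AS1, PPFIA2-AS1, HDAC9-AS1 and NR2F2-AS1. ZNF503-AS1 had 51 reads over 6.23 (fold 7.19) in an intron and 31 reads over 4.40 (fold 5.92) in an exon, 26 bp from a TSS. HSD17B2-AS1 had 7.02 from 23 reads in the shared repeat. STAU2-AS1 had 6.61 from 46 reads, PPFIA2-AS1 6.55 from 9 reads, and HDAC9-AS1 5.66 from 15 reads. The last of these sat in an intron of HDAC9. PPFIA2-AS1, with 0.527 background reads, shows again how a high fold can rest on few reads.

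A total of 12 lncRNA genes had 2 or more of the regions. After MIR99AHG came LINC01138 on chromosome 1 with 3, at folds of 4.65, 3.74 and 3.35. The other 10 had 2 each. They were DLEU1, LINC00511, LINC01411, MIR17HG, SLC8A1-AS1, ZNF503-AS1, FAM182B, ENSG00000276216, ENSG00000278095 and ENSG00000286373. LINC01411 had 47 reads over 7.35 (fold 5.75) in an exon, 107 bp from a start, and 28 reads over 8.03 (fold 3.21) at another. The second region of SLC8A1-AS1 had 13 reads and a fold of 5.24. FAM182B had the lowest stack of all, 5 reads over 0.217.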

How the data were processed

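ChIP-seq regions of 2 samples of HCT116 cells were used, TCF7L1 and TCF7L1-MUT, grouped by genotype. The authors trimmed reads with skewer, used BWA (v0.7.12) to align them to GRCh38/hg38, and ran MACS2 (v2.1.0) on each sample, per the study's methods and the submitters' processing notes. An input library is not given in the sources used here, so the folds are not known to be corrected for one. The threshold and the treatment of duplicate and multi-mapping reads are not given either. All of these can change which regions of repeated sequence are listed. The deposited files give a fold enrichment (a ratio), a −log10 p-value and −log10 q-value, and a score, which is 10 times the −log10 q-value cut to a whole number and was not used. Deposited summit lists repeat positions and −log10 q-values (3762 and 224 of 3762 and 224 summits matched).

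Each region was represented by the first listed summit. LncRNA and protein-coding were read from the gene type in GENCODE release 44, and the TSSs of all transcripts were used. Reads and background at a summit were solved from the fold and a Poisson p-value (tolerance 0.001). Reachable lncRNA genes had at least 1 qualifying base within 2.5 kb of a TSS. Copies were counted over 194 assembled sequences without alternates. Shares have Wilson 95% intervals, differences Newcombe intervals for independent shares and medians binomial intervals. The interval of a ratio is that of the share divided by the background share. Tests over regions were not made, since these are not replicates. Scripts used Python with pandas 2.3.3, numpy 2.4.6, scipy 1.17.1, pysam 0.24.0, numba 0.67.0 and matplotlib 3.10.9, and were tested on simulated data.

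The regions, gene lists and patterns were chosen with earlier results of these data known. Named regions were the 10 highest folds, the 5 closest to a TSS, the 5 with the closest TCF match, up to 8 per list by fold, genes with 2 or more regions, the regions at each limit and the 5 with most copies. ZNRF3-AS1, TEX41 and the repeat group were singled out after values were seen. Alternatives were stricter q-value and fold limits, another summit, a wider distance from TCF7L1-MUT, 5′ ends of genes, other distances, windows, flanks and backgrounds, and single-copy regions. Leaving out the repeat group, the transcript biotype, single-copy distances and lists by 5′ ends were added after seeing the data. A few items that the naming rule chose are not reported here.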

Additional observations from a re-analysis of the deposited data

How the results depend on the processing

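Across 6 summary values, 37 of 48 alternatives stayed within the 95% interval of the value or, for counts, within 1.5 times, and 11 moved outside it. None turned the TCF core pattern ratio below 1. With a fold enrichment of at least 5 the regions fell to 125 and the lncRNA genes to 128, the median fold was 5.86 and the multi-copy share 35.2%. Limiting q-values to 0.001 gave a median fold of 5.27. Both medians move by construction, since the limits remove low folds. The ratio of the TCF core pattern to flanks was 2.53 in windows of 50 bp to either side, 1.53 with 250 bp, 2.32 against unbound lncRNA starts, 1.46 in single-copy regions and 1.49 without the repeat group. The multi-copy share was 11.9% when 90% of words had to be repeated. By transcript biotype there were 244 regions. Requiring no TCF7L1-MUT region within 1 kb left 243 and could change none of the 6 values, since the closest lay 34487 bp away. Taking another summit could matter only for regions with several summits, which were 7 of the 243. Both are counted among the alternatives that stayed, so that tally overstates how far the values were tried. The groups hold 1 sample each, so samples could not be paired. Regions were not paired with their own flanks either, and the intervals of those differences treat the windows as independent. With 1 library and a median of 21 reads per summit, places that were not called cannot be read as free of TCF7L1. This includes the lncRNA starts termed unbound.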
